A study of Mus musculus with 29 samples.

Results

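Tmem symbols name genes that were given a number as predicted transmembrane proteins. In the deposited table of poly(A) sites, 203 symbols consisted of Tmem followed by a number, and the 130 with at least 260 reads over the 26 libraries of 3' ends were taken as members. They were chosen by symbol and read number alone, out of 10054 genes that passed the same minimum and 15954 genes with any read. Another 69 Tmem genes fell below the minimum and 4 had no read. The members closest to the minimum were Tmem190 with 266, Tmem184a with 330 and Tmem170 with 333 reads. The genes closest to it from below were Tmem86a with 259, Tmem169 with 241 and Tmem117 with 240 reads.

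A protein with membrane-spanning segments is usually made by ribosomes that are docked on the endoplasmic reticulum (ER). The signal recognition particle binds the first hydrophobic segment as it leaves the ribosome and brings the ribosome, with its mRNA, to the translocon of the ER membrane. Proteins of the plasma membrane, the Golgi apparatus, lysosomes and the nuclear envelope start on this route, whereas most mitochondrial proteins are made on free ribosomes and imported afterwards. Tmem genes share a naming rule, not an ancestor, and their products sit in all of these membranes.

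All samples came from C2C12, an established mouse myoblast line, whose lysates had been separated into a membrane and a cytosol fraction. Differentiating cells gave 8 libraries and proliferating cells gave 8, each set with polysome and monosome gradient fractions of membrane and of cytosol in 2 replicates. Proliferating cells also gave 4 pairs of 1 membrane and 1 cytosol library, from cells left untreated or given puromycin at 100 µg/ml for 0, 30 or 60 min, and 1 pair of whole membrane and cytosol fractions that were not run on a gradient. These 26 libraries were made with 3'READS+, which sequences the end of a transcript next to its poly(A) tail, and 3 RNA-seq libraries covered membrane, insoluble and cytosol material of proliferating cells. The labels list medium with 10% fetal bovine serum for proliferating cells and with 2% horse serum for differentiating polysomes, but 10% fetal bovine serum for the 4 monosome libraries of differentiating cells. Whether replicates were separate cultures is not said, so p-values measure the spread between these libraries, which may be technical. The main gradient fits did not use the replicate number as pairing, and fits with it as a block are given beside some results. Levels are given as CPM, the usual depth-scaled read count of a library, summed over all sites of a gene. A 3' end read is 1 per transcript end, so CPM was not divided by length.

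Total reads ran from 2964852 to 8237846 in the gradient libraries and from 5506600 to 11631401 in the puromycin set. Myog, a muscle transcription factor, had 101 to 467 CPM in membrane and 69.8 to 506 CPM in cytosol of differentiating cells, against at most 3.49 CPM in membrane and 2.34 CPM in cytosol of proliferating cells. The 4 differentiating monosome libraries, whose labels list 10% serum, had 69.8 to 506 CPM of Myog, and the 4 differentiating polysome libraries had 96.0 to 407 CPM. The ER chaperone Hspa5 had 320.3 to 764 CPM in membrane and 18.2 to 38.2 CPM in cytosol of proliferating cells. There the nuclear RNAs Neat1 and Malat1 reached 624 and 33.9 CPM in membrane, against at most 16.1 and 7.03 CPM in cytosol, with overlap. Membrane libraries thus held RNA other than ER-bound mRNA. The cytosol marker Rpl8 had 8193 to 18862 CPM in membrane and 21459 to 56116 CPM in cytosol. Eef1a1 overlapped between the fractions, and Gapdh had at most 2.30 CPM. The negative markers Adipoq, Pecam1 and Ptprc had at most 1.20 CPM in any gradient library. Replicate 1 of differentiating cells held more muscle mRNA than replicate 2 in every fraction, with Acta1 at 4772 to 6870 CPM in replicate 1 and 949 to 1255 CPM in replicate 2.

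Members made up 0.991 to 1.19% of the reads of membrane polysomes, against 0.242 to 0.377% of the reads of cytosol polysomes. In monosomes the shares were 0.727 to 0.956% in membrane and 0.691 to 0.922% in cytosol. The median member had a mean of 19.1 CPM over the 16 gradient libraries, close to the 19.6 CPM of all genes at the same read minimum. Levels were uneven, with 46 members under 10 CPM and 20 members at 100 CPM or more, and the 10 highest held 45.6% of all member reads. Those 10 were Tmem167, Tmem183a, Tmem134, Tmem147, Tmem208, Tmem111, Tmem38a, Tmem120a, Tmem11 and Tmem192.

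Most members ended at few sites. Counting sites with at least 5% of a gene's reads, 56 members had 1 site, 35 had 2, 21 had 3 and 18 had 4 or more, shares of 43.1, 26.9, 16.2 and 13.8% against 45.3, 27.4, 15.1 and 12.2% of all genes. In mm9 coordinates, Tmem147 put all its reads at a site on the minus strand of chromosome 7 at position 31512720, and Tmem208 put all of them on the plus strand of chromosome 8 at position 107852957. Tmem8c had 91.2% of its reads at position 26917195 on the minus strand of chromosome 2. Tmem38a used a site at position 75111179 on the plus strand of chromosome 8 for 90.8% of its reads and a site at position 75110338 for 9.20%. Tmem111 split its reads between position 113465798, with 54.6%, and position 113464868, with 43.9%, on the minus strand of chromosome 6. The most spread was Tmem65, a gene of the mitochondrial inner membrane on chromosome 15, with 6 such sites, the most used at 26.7% of its reads. The table marks no exons or UTRs, and no genome of that build was used here.

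The question of the gradient design is where an mRNA is translated. In proliferating cells most Tmem mRNAs had a higher level in the membrane fraction. Of the 130 members, 85 were higher in membrane than in cytosol and 4 were lower (edgeR's quasi-likelihood test on all 16 gradient libraries, mean of polysomes and monosomes, Benjamini-Hochberg adjusted p under 0.05 over 11176 genes). Over all genes tested, 23.2% were higher and 11.5% were lower. The median log2 ratio of membrane over cytosol was 1.55 for members and 0.17 for all genes. With DESeq2 size factors in place of TMM the median of all genes moved by -0.18 to -0.0044. Members then had 77 higher, 7 lower and a median of 1.37, and no share of all genes called is given for that scaling. The 4 membrane libraries lay above all 4 cytosol libraries for 76 members, 58.5%, against 21.7% of all genes, and below them for none, against 4.31% of all genes. For scale, 98 of 160 Slc-named transporter genes were higher in membrane and 4 lower, and 55 of 246 Zfp-named zinc-finger genes were higher and 17 lower.

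**Figure D1:**
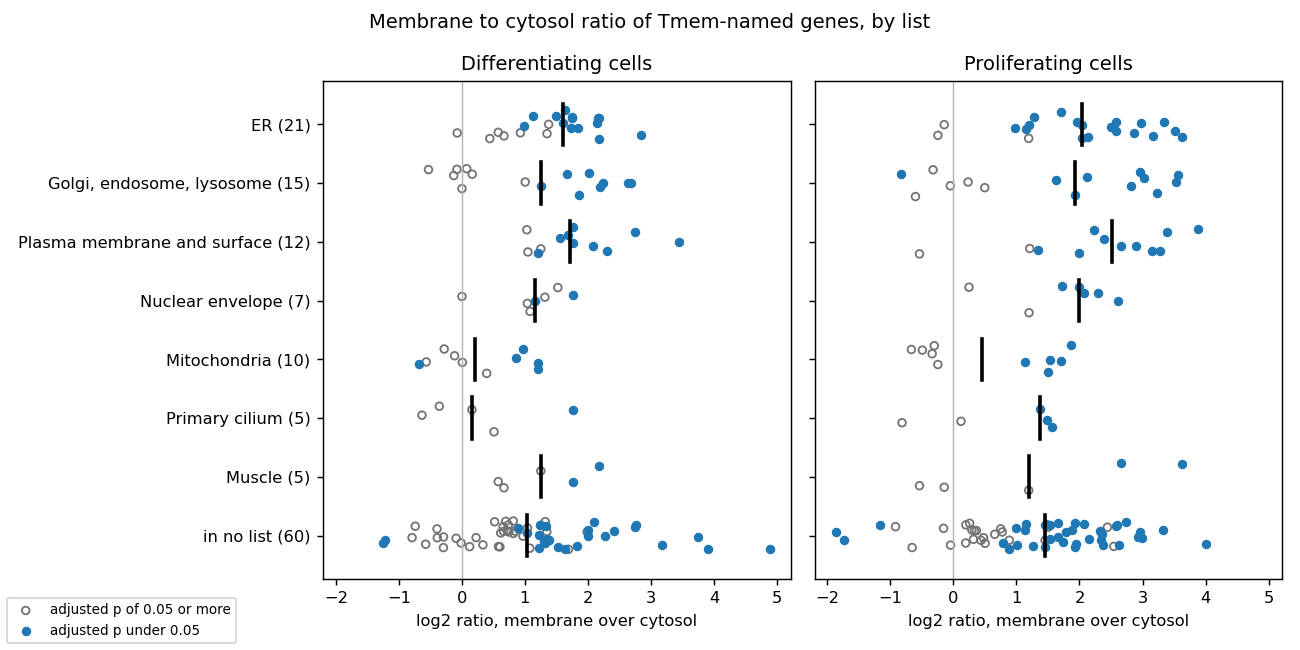
Log2 ratio of membrane over cytosol for the 130 Tmem genes in differentiating cells (left) and proliferating cells (right), by list, with the number of members in brackets; filled points passed an adjusted p of 0.05, open points did not, black bars are medians, and vertical scatter has no meaning. Tmem104 and Tmem79 (left, in no list) and Tmem204 (right, surface) have a cytosol group without a read, so their places depend on the fit. The ER, Golgi, plasma membrane and nuclear envelope lists lie mostly to the right of 0, with proliferating medians from 1.93 to 2.52, and the mitochondrial list centres at 0.45 there.

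The lists by compartment, drawn up from known locations of the proteins, placed 70 members, and the other 60 were in none. These lists and the muscle list used below were made with earlier results of these data known. Their counts and medians are therefore a description and not a separate test. Tmem43, found in more than 1 membrane, was counted under ER only. Among members of the ER, 18 of 21 were higher in membrane and none lower, with a median log2 ratio of 2.04. Tmem147, a partner of the ER translocon, had 824 and 848 CPM in membrane polysomes and 541 and 878 CPM in membrane monosomes, against 154 and 166 CPM in cytosol polysomes and 373 and 614 CPM in cytosol monosomes. The membrane polysomes were thus about level with the higher membrane monosome, and 1 cytosol monosome library overlapped the membrane range (log2 ratio 1.27 ± 0.26 SE, adjusted p = 0.00207). Tmem208, which takes part in targeting proteins to the ER, had 660.1 and 704 CPM in membrane polysomes and 436 and 402 CPM in membrane monosomes, against 125 and 109 CPM in cytosol polysomes and 511 and 426 CPM in cytosol monosomes. Its cytosol monosomes reached the level of membrane monosomes, while its polysomes did not overlap (log2 ratio 0.98 ± 0.21 SE, adjusted p = 0.00265).

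Tmem111, a subunit of the ER complex that inserts membrane proteins (EMC3), had 869.5 and 1109 CPM in membrane polysomes and 281 and 493 CPM in membrane monosomes, against 66.1 and 57.8 CPM in cytosol polysomes and 125 and 145 CPM in cytosol monosomes. All membrane libraries lay above all cytosol libraries (log2 ratio 2.59 ± 0.27 SE, adjusted p = 1.22e-05). Another subunit of that complex, Tmem93 (EMC6), did not pass (log2 ratio -0.25 ± 0.29 SE, adjusted p = 0.547). It had 9.47 and 18.5 CPM in membrane polysomes and 50.5 and 38.3 CPM in membrane monosomes, against 13.9 and 14.5 CPM in cytosol polysomes and 38.0 and 55.2 CPM in cytosol monosomes. The fractions overlapped within monosomes, and polysomes were at or below 18.5 CPM in both fractions. The ER members with the highest ratios were Tmem109, Tmem43 and Tmem97. Tmem109 (mitsugumin 23, a cation channel of the ER and sarcoplasmic reticulum) had 44.3 and 89.5 CPM in membrane polysomes and 16.2 and 28.4 CPM in membrane monosomes, against 0.688 and 1.97 CPM in cytosol polysomes and 2.60 and 8.84 CPM in cytosol monosomes, with no overlap (log2 ratio 3.63 ± 0.50 SE, adjusted p = 8.93e-05). Tmem43, also called LUMA, an ER and inner nuclear membrane protein, had 148 and 287 CPM in membrane polysomes and 104 and 263 CPM in membrane monosomes, against 8.60 and 8.21 CPM in cytosol polysomes and 16.9 and 42.6 CPM in cytosol monosomes, with no overlap (log2 ratio 3.51 ± 0.41 SE, adjusted p = 2.33e-05). Tmem97, the sigma-2 receptor, had 46.7 and 70.3 CPM in membrane polysomes and 27.3 and 48.2 CPM in membrane monosomes, against 1.20 and 1.97 CPM in cytosol polysomes and 10.4 and 10.4 CPM in cytosol monosomes, again with every membrane library on top (log2 ratio 3.35 ± 0.35 SE, adjusted p = 1.06e-05).

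The other ER members that passed were Tmem41b, a lipid scramblase, at a log2 ratio of 3.17, Tmem33 at 2.98 and the innate immune sensor adaptor Tmem173 (STING) at 2.87. They were followed by Tmem203 at 2.58, the store-operated calcium entry regulator Tmem66 (SARAF) at 2.50, Tmem131 at 2.13 and Tmem39a at 2.04. Next were Tmem214 at 2.03, Tmem68 at 1.96, Tmem110 (STIMATE) at 1.70, the ubiquitin ligase Tmem129 at 1.19 and the plasmalogen desaturase Tmem189 at 1.16. The ER trimeric cation channels did not pass. Tmem38a (TRIC-A) had 92.4 and 63.3 CPM in membrane polysomes and 63.2 and 38.5 CPM in membrane monosomes, against 12.0 and 8.21 CPM in cytosol polysomes and 55.7 and 51.7 CPM in cytosol monosomes, so that its polysomes were apart while its monosomes overlapped (log2 ratio 1.19 ± 0.74 SE, adjusted p = 0.242). It passed with the replicate number as a block, that is, within pairs of the same number (log2 ratio 1.19 ± 0.17 SE, adjusted p = 2.08e-07). Tmem38b (TRIC-B) had 4.13 and 9.07 CPM in membrane polysomes and 5.95 and 5.23 CPM in membrane monosomes, against 2.24 and 2.30 CPM in cytosol polysomes and 10.2 and 20.1 CPM in cytosol monosomes, with overlap (log2 ratio -0.15 ± 0.41 SE, adjusted p = 0.821). Over polysome libraries alone its log2 ratio was 1.40, also without passing.

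In the list of Golgi, endosome and lysosome proteins, 9 of 15 members were higher in membrane and 1 lower, with a median log2 ratio of 1.93. Tmem115, a Golgi protein, had 320.1 and 373 CPM in membrane polysomes and 197 and 328 CPM in membrane monosomes, against 24.9 and 36.8 CPM in cytosol polysomes and 31.5 and 44.9 CPM in cytosol monosomes, with no overlap (log2 ratio 2.96 ± 0.29 SE, adjusted p = 7.10e-06). Tmem165, the Golgi manganese transporter, had 15.1 and 24.5 CPM in membrane polysomes and 14.0 and 13.3 CPM in membrane monosomes, against 0.688 and 0.985 CPM in cytosol polysomes and 1.04 and 2.43 CPM in cytosol monosomes, also without overlap (log2 ratio 3.54 ± 0.50 SE, adjusted p = 0.000116). Its cytosol libraries had 4 to 11 reads each, so the size of this ratio rests on few reads. Tmem59, a late endosomal protein, had 17.8 and 57.5 CPM in membrane polysomes and 17.6 and 47.8 CPM in membrane monosomes, against 0.688 and 1.48 CPM in cytosol polysomes and 3.91 and 9.28 CPM in cytosol monosomes (log2 ratio 3.56 ± 0.80 SE, adjusted p = 0.00389). Its replicate 2 was above replicate 1 in all 4 fractions, and the fractions did not overlap. Tmem106b at a log2 ratio of 3.23, Tmem9 at 3.03, Tmem127 at 2.82, the lysosomal potassium channel Tmem175 at 2.12, Tmem87a at 1.93 and Tmem9b at 1.62 were the others that passed. Tmem199 (log2 ratio 0.23 ± 0.24 SE, adjusted p = 0.496) and Tmem167b (log2 ratio 0.50 ± 0.23 SE, adjusted p = 0.111) did not, although Tmem167b passed with the block (log2 ratio 0.48 ± 0.18 SE, adjusted p = 0.0207).

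Abundant members of the same list went without a membrane excess. Tmem167 (Kish), a small Golgi protein of the secretory pathway and the member with the highest mean level, had 422 and 508 CPM in membrane polysomes and 933 and 1005 CPM in membrane monosomes, against 280.4 and 238 CPM in cytosol polysomes and 1256 and 1589 CPM in cytosol monosomes. Its highest libraries were cytosol monosomes, and the difference did not pass (log2 ratio -0.05 ± 0.21 SE, adjusted p = 0.889). Tmem192, a lysosomal membrane protein, had 134 and 65.9 CPM in membrane polysomes and 196 and 161 CPM in membrane monosomes, against 63.5 and 59.8 CPM in cytosol polysomes and 393 and 577 CPM in cytosol monosomes, likewise highest in cytosol monosomes (log2 ratio -0.60 ± 0.23 SE, adjusted p = 0.0539). With the block Tmem192 passed as lower (log2 ratio -0.61 ± 0.18 SE, adjusted p = 0.0035). The direction of both turned with the fraction of the gradient: over polysome libraries alone their log2 ratios were 0.71 and 0.55, neither of which passed. Of the phosphoinositide phosphatases of late endosomes and lysosomes, Tmem55b had 171 and 88.6 CPM in membrane polysomes and 237 and 143 CPM in membrane monosomes, against 201 and 156 CPM in cytosol polysomes and 135 and 175 CPM in cytosol monosomes, with overlap (log2 ratio -0.32 ± 0.24 SE, adjusted p = 0.337). Its paralogue Tmem55a was lower in membrane (log2 ratio -0.83 ± 0.26 SE, adjusted p = 0.0262). It had 12.3 and 7.70 CPM in membrane polysomes and 16.8 and 14.8 CPM in membrane monosomes, against 16.9 and 13.1 CPM in cytosol polysomes and 28.4 and 20.1 CPM in cytosol monosomes. The fractions overlapped by 1 library.

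**Figure D2:**
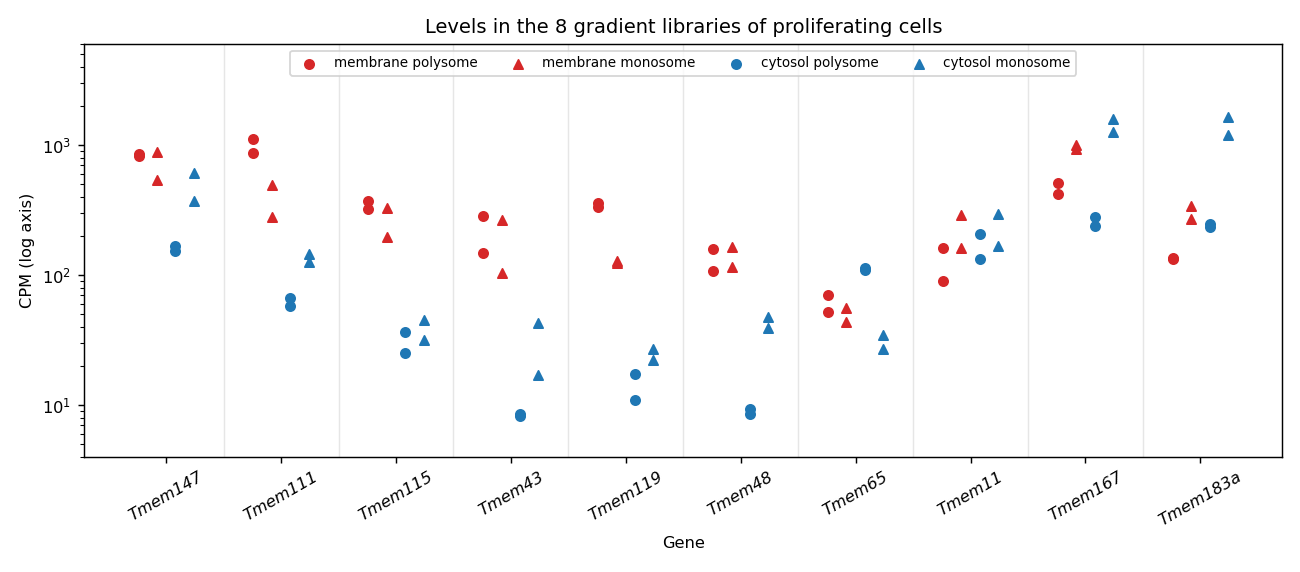
CPM (log axis) of 10 Tmem genes in each of the 8 gradient libraries of proliferating cells; red marks membrane and blue cytosol, circles polysomes and triangles monosomes, 2 replicates each. Tmem111, Tmem115, Tmem43, Tmem119 and Tmem48 have every membrane library above every cytosol library, whereas Tmem11 overlaps between replicates and Tmem167 and Tmem183a are highest in cytosol monosomes.

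Plasma membrane and surface proteins had the highest list median, 2.52, with 10 of 12 members higher in membrane and none lower. Tmem119, a surface protein known from bone and from microglia, had 359 and 333 CPM in membrane polysomes and 124 and 127 CPM in membrane monosomes, against 17.4 and 10.8 CPM in cytosol polysomes and 22.4 and 27.0 CPM in cytosol monosomes, with the fractions far apart (log2 ratio 3.27 ± 0.34 SE, adjusted p = 1.14e-05). Tmem63a, a mechanically gated cation channel, had 296 and 400.4 CPM in membrane polysomes and 219.7 and 258 CPM in membrane monosomes, against 28.4 and 23.5 CPM in cytosol polysomes and 93.8 and 85.7 CPM in cytosol monosomes, without overlap (log2 ratio 2.39 ± 0.23 SE, adjusted p = 6.13e-06). Tmem30a, the subunit that carries lipid flippases to the surface, had 116 and 114 CPM in membrane polysomes and 76.3 and 103 CPM in membrane monosomes, against 6.54 and 6.73 CPM in cytosol polysomes and 8.33 and 13.3 CPM in cytosol monosomes, without overlap (log2 ratio 3.39 ± 0.32 SE, adjusted p = 5.67e-06). Tmem98 had 136 and 84.2 CPM in membrane polysomes and 77.6 and 57.0 CPM in membrane monosomes, against 17.4 and 16.1 CPM in cytosol polysomes and 52.6 and 46.8 CPM in cytosol monosomes, with monosomes of both fractions near each other (log2 ratio 1.34 ± 0.29 SE, adjusted p = 0.00273). Tmem47 had the highest ratio in the list, with 12.3 to 18.8 CPM in membrane and 0.442 to 1.72 CPM in cytosol (log2 ratio 3.89 ± 0.50 SE, adjusted p = 5.10e-05). Its cytosol libraries had 2 to 10 reads each, so the size of this ratio and its rank rest on few reads. The hyaluronidase Tmem2 at 2.89, Tmem158 at 2.22 and the proton-activated chloride channel Tmem206 at 2.00 also passed. So did Tmem204, whose cytosol polysome libraries had no read, and Tmem8c, whose cytosol libraries had at most 3 reads each, so that no fold change is given. Tmem123 at 1.21 and Tmem182 at -0.54 did not pass, but Tmem123 did with the replicate block (log2 ratio 1.29 ± 0.23 SE, adjusted p = 1.28e-05).

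Of the nuclear envelope members, 5 of 7 were higher in membrane and none lower, with a median log2 ratio of 1.99. Tmem48 (Ndc1), which anchors the nuclear pore complex in the membrane, had 108 and 158 CPM in membrane polysomes and 114 and 163 CPM in membrane monosomes, against 9.29 and 8.54 CPM in cytosol polysomes and 38.8 and 47.7 CPM in cytosol monosomes, without overlap (log2 ratio 2.61 ± 0.27 SE, adjusted p = 9.91e-06). The inner nuclear membrane protein Tmem201 (Samp1) had 87.4 and 232 CPM in membrane polysomes and 54.4 and 135 CPM in membrane monosomes, against 11.9 and 22.5 CPM in cytosol polysomes and 23.7 and 35.8 CPM in cytosol monosomes (log2 ratio 2.30 ± 0.49 SE, adjusted p = 0.00268), with replicate 2 above replicate 1 in each fraction and no overlap. Tmem209 at 2.07, Tmem194 (Nemp1) at 1.99 and Tmem194b at 1.72 passed too. Tmem53 passed only with the block (log2 ratio 1.18 ± 0.35 SE, adjusted p = 0.0038; log2 ratio 1.20 ± 0.54 SE, adjusted p = 0.101 without it). The most abundant of the list, Tmem120a, did not (log2 ratio 0.25 ± 0.25 SE, adjusted p = 0.49). It had 419 and 371 CPM in membrane polysomes and 193 and 321 CPM in membrane monosomes, against 115 and 121 CPM in cytosol polysomes and 378 and 567 CPM in cytosol monosomes. Its polysomes were apart and its cytosol monosomes were above its membrane monosomes.

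Mitochondrial members fell into 2 kinds. Of 10, 5 were higher in membrane and none passed as lower, and the median log2 ratio was 0.45. Those that passed were Tmem143 at 1.87, Tmem14c, a porphyrin transporter needed for heme synthesis, at 1.70, the complex I assembly factor Tmem186 at 1.53, the cytochrome oxidase assembly factor Tmem177 at 1.50 and the ATP synthase assembly factor Tmem70 at 1.14. Tmem14c had 89.5 and 67.4 CPM in membrane polysomes and 37.5 and 40.5 CPM in membrane monosomes, against 16.7 and 16.4 CPM in cytosol polysomes and 15.1 and 10.8 CPM in cytosol monosomes, without overlap (log2 ratio 1.70 ± 0.25 SE, adjusted p = 0.000149). The others lay on the cytosol side of 0 without passing. Tmem11, needed for the shape of cristae, had 162 and 90.7 CPM in membrane polysomes and 288 and 160.4 CPM in membrane monosomes, against 206 and 133 CPM in cytosol polysomes and 298 and 169 CPM in cytosol monosomes (log2 ratio -0.49 ± 0.31 SE, adjusted p = 0.247). Tmem160 had 99.9 and 98.7 CPM in membrane polysomes and 38.6 and 46.3 CPM in membrane monosomes, against 123 and 103 CPM in cytosol polysomes and 38.5 and 52.4 CPM in cytosol monosomes (log2 ratio -0.34 ± 0.21 SE, adjusted p = 0.248). Tmem65 had 70.5 and 52.3 CPM in membrane polysomes and 55.6 and 43.5 CPM in membrane monosomes, against 113 and 109 CPM in cytosol polysomes and 27.1 and 34.5 CPM in cytosol monosomes (log2 ratio -0.30 ± 0.22 SE, adjusted p = 0.326). In Tmem160 and Tmem65 the fractions overlapped, Tmem65 being higher in cytosol polysomes and in membrane monosomes. Tmem11 was lower in membrane within every pair of the same number and gradient fraction, and passed as lower with the block (log2 ratio -0.47 ± 0.15 SE, adjusted p = 0.00975). Tmem126b at -0.25 and Tmem126a at -0.67 complete the list, and Tmem126a also passed with the block (log2 ratio -0.68 ± 0.25 SE, adjusted p = 0.0197).

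Of 5 members of the primary cilium, Tmem17 at 1.56, Tmem231 at 1.48 and Tmem218 at 1.37 were higher in membrane, while Tmem107 at 0.12 and Tmem80 at -0.82 did not pass. The value of Tmem107 turned to -0.07 with DESeq2 size factors. Tmem218 had 51.7 and 34.9 CPM in membrane polysomes and 51.5 and 35.5 CPM in membrane monosomes, against 9.98 and 6.24 CPM in cytosol polysomes and 29.2 and 21.2 CPM in cytosol monosomes (log2 ratio 1.37 ± 0.25 SE, adjusted p = 0.000942). Tmem80 had 2.06 and 1.54 CPM in membrane polysomes and 13.1 and 4.48 CPM in membrane monosomes, against 2.92 and 2.13 CPM in cytosol polysomes and 12.5 and 15.2 CPM in cytosol monosomes, with its highest libraries in monosomes (log2 ratio -0.82 ± 0.38 SE, adjusted p = 0.113), and it passed as lower with the block (log2 ratio -0.86 ± 0.32 SE, adjusted p = 0.0198). Among the 60 members in no list, 35 were higher and 3 were lower in membrane, with a median log2 ratio of 1.46. Tmem132a had the highest ratio of all members that passed with a mean of at least 5 CPM, with 47.7 and 68.6 CPM in membrane polysomes and 31.6 and 34.7 CPM in membrane monosomes, against 1.03 and 1.15 CPM in cytosol polysomes and 6.51 and 3.76 CPM in cytosol monosomes and no overlap (log2 ratio 4.01 ± 0.44 SE, adjusted p = 1.66e-05).

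The members lower in membrane were Tmem29, Tmem183a and Tmem134 of no list, beside Tmem55a. Tmem29 had 10.3 and 7.87 CPM in membrane polysomes and 62.2 and 43.3 CPM in membrane monosomes, against 33.5 and 24.5 CPM in cytosol polysomes and 138 and 184 CPM in cytosol monosomes (log2 ratio -1.86 ± 0.26 SE, adjusted p = 9.19e-05). Tmem183a, the second most abundant member, had 134 and 136 CPM in membrane polysomes and 341 and 270.5 CPM in membrane monosomes, against 245 and 234 CPM in cytosol polysomes and 1204 and 1636 CPM in cytosol monosomes (log2 ratio -1.73 ± 0.24 SE, adjusted p = 8.48e-05). Tmem134 had 104 and 53.0 CPM in membrane polysomes and 508 and 271 CPM in membrane monosomes, against 151 and 41.7 CPM in cytosol polysomes and 1499 and 732 CPM in cytosol monosomes (log2 ratio -1.17 ± 0.37 SE, adjusted p = 0.0265). All 3 were highest in cytosol monosomes, and each had a membrane monosome library above at least 1 cytosol polysome library, so that their fractions overlapped. Of the 4 members lower in membrane, 2 passed over polysome libraries alone, and all 4 kept their sign there.

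A membrane excess was again seen in differentiating cells. There, 63 members were higher in membrane and 3 were lower, against 14.2% and 5.49% of all genes, with a median log2 ratio of 1.21 for members and 0.07 for all genes (edgeR, as above). Of these 63, 62 were also among the 85 higher in membrane of proliferating cells. The 4 membrane libraries were above all 4 cytosol libraries for 58 members, 44.6%, against 14.1% of all genes. By list, 14 of 21 ER members, 8 of 15 of Golgi, endosome and lysosome, 9 of 12 of the plasma membrane, 2 of 7 of the nuclear envelope, 4 of 10 of mitochondria and 1 of 5 of the cilium were higher.

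Tmem119 had 273 and 667 CPM in membrane polysomes and 86.3 and 138 CPM in membrane monosomes, against 8.23 and 20.1 CPM in cytosol polysomes and 17.5 and 25.3 CPM in cytosol monosomes, without overlap (log2 ratio 3.44 ± 0.35 SE, adjusted p = 3.36e-05). Tmem132a had 52.8 and 27.0 CPM in membrane polysomes and 21.8 and 7.16 CPM in membrane monosomes, against 1.20 and 0.51 CPM in cytosol polysomes and 2.09 and 2.70 CPM in cytosol monosomes, also without overlap (log2 ratio 3.75 ± 0.46 SE, adjusted p = 0.000101). Tmem37 had 233 and 101 CPM in membrane polysomes and 105 and 45.4 CPM in membrane monosomes, against 4.80 and 6.63 CPM in cytosol polysomes and 26.4 and 10.1 CPM in cytosol monosomes (log2 ratio 3.17 ± 0.41 SE, adjusted p = 0.000135). Tmem43 had 109 and 128 CPM in membrane polysomes and 65.1 and 57.3 CPM in membrane monosomes, against 5.83 and 8.33 CPM in cytosol polysomes and 15.4 and 11.1 CPM in cytosol monosomes (log2 ratio 2.84 ± 0.40 SE, adjusted p = 0.000278). Every membrane library was on top in both genes. Tmem104 and Tmem79 passed with cytosol monosome libraries without a read, so that no fold change is given. Tmem104 had 4.22 and 10.6 CPM in membrane polysomes and 1.67 and 6.37 CPM in membrane monosomes, against 0 and 2.72 CPM in cytosol polysomes and 0 and 0 CPM in cytosol monosomes. Tmem79 had 1.63 and 1.47 CPM in membrane polysomes and 1.67 and 1.59 CPM in membrane monosomes, against 0.514 and 0.34 CPM in cytosol polysomes and 0 and 0 CPM in cytosol monosomes. On the cytosol side were Tmem29 (log2 ratio -1.25 ± 0.25 SE, adjusted p = 0.00332), Tmem183a (log2 ratio -1.22 ± 0.23 SE, adjusted p = 0.00226) and the mitochondrial Tmem160 (log2 ratio -0.69 ± 0.21 SE, adjusted p = 0.0379). Over polysome libraries alone these 3 kept their sign, but 0 passed. Tmem160 had 166 and 131 CPM in membrane polysomes and 54.5 and 56.0 CPM in membrane monosomes, against 156 and 221 CPM in cytosol polysomes and 79.1 and 73.5 CPM in cytosol monosomes, with overlap.

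A difference in the membrane ratio itself between differentiating and proliferating cells was not shown. No member passed (edgeR's interaction term; 0% of all genes), 16 members had an unadjusted p under 0.05, and DESeq2's test also called no member. The median difference of log2 ratios was -0.40 for members and -0.08 for all genes. With the replicate number as a block, 13 members passed, against 4.6% of all genes. The ratio was lower in differentiating cells for 12 of them, against 3.87% of all genes, and higher for Tmem121, against 0.725%. The 12, named after their values were seen, were Tmem109, Tmem106b, Tmem48, Tmem2, Tmem59, Tmem33, Tmem30a, Tmem19, Tmem9, Tmem66, Tmem214 and Tmem218, with differences from -1.52 to -0.85.

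Within the cytosol, many Tmem mRNAs had a lower level in polysome than in monosome libraries. In proliferating cells 53 members were lower in polysomes than in monosomes and 2 were higher, against 12.8% and 11.5% of all genes, with a median log2 ratio of polysome over monosome of -1.34 for members and -0.02 for all genes. In differentiating cells 48 were lower and 3 were higher, against 11.3% and 12.6%, with medians of -1.11 and 0.07. The block raised this to 70 lower and 8 higher, against 21.5% and 24.6% of all genes. A total of 41 members were lower in both states, a count given without a share of all genes. Leaving out cytosol polysome replicate 1 or 2 of proliferating cells left 33 and 30 members called in that state. In differentiating cells, 24 and 32 were called without cytosol polysome replicate 1 or 2, and 32 without cytosol monosome replicate 2.

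Among the genes that fell most in cytosol polysomes of proliferating cells was Tmem189, with 1.55 and 3.12 CPM in cytosol polysomes, against 14.1 and 46.8 CPM in cytosol monosomes (log2 ratio -3.75 ± 0.58 SE, adjusted p = 0.000801). Tmem134 had 151 and 41.7 CPM in cytosol polysomes, against 1499 and 732 CPM in cytosol monosomes (log2 ratio -3.62 ± 0.58 SE, adjusted p = 0.000896). Tmem192 had 63.5 and 59.8 CPM in cytosol polysomes, against 393 and 577 CPM in cytosol monosomes (log2 ratio -3.04 ± 0.34 SE, adjusted p = 0.000213). In these 3 genes every polysome library was below every monosome library. Tmem170, with 4 reads in each polysome library (log2 ratio -3.38 ± 0.77 SE, adjusted p = 0.00725), Tmem87b (log2 ratio -3.12 ± 0.57 SE, adjusted p = 0.00209) and Tmem60 (log2 ratio -2.94 ± 0.39 SE, adjusted p = 0.000358) followed. By list, 13 of 21 ER members were lower in polysomes, 5 of 15 of Golgi, endosome and lysosome, 4 of 12 of the plasma membrane, 2 of 7 of the nuclear envelope and 3 of 5 of the cilium, none of them higher.

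In proliferating cells the 2 members higher in cytosol polysomes were Tmem65 and Tmem160, both of the mitochondrial list. Tmem65 had 113 and 109 CPM in cytosol polysomes, against 27.1 and 34.5 CPM in cytosol monosomes (log2 ratio 1.78 ± 0.33 SE, adjusted p = 0.00203). Tmem160 had 123 and 103 CPM in cytosol polysomes, against 38.5 and 52.4 CPM in cytosol monosomes (log2 ratio 1.24 ± 0.31 SE, adjusted p = 0.0106). In both genes each polysome library was above each monosome library. Of the 10 mitochondrial members these 2 were higher and 2 were lower, with a median of 0.16. In differentiating cells the genes higher in cytosol polysomes were Tmem65 with 94.0 and 176 CPM in cytosol polysomes, against 22.7 and 32.0 CPM in cytosol monosomes (log2 ratio 1.96 ± 0.33 SE, adjusted p = 0.00128), Tmem160 (log2 ratio 0.98 ± 0.30 SE, adjusted p = 0.0321) and Tmem135, which is in no list (log2 ratio 1.17 ± 0.35 SE, adjusted p = 0.0285). Among those that fell most there were Tmem38b, Tmem134, Tmem189 and Tmem179b, with log2 ratios from -3.49 to -3.24. Tmem18 and Tmem131 passed as well, but had at most 0.343 CPM in cytosol polysomes, too few reads for a fold change. Tmem38b, the trimeric cation channel, had 1.72 and 5.78 CPM in cytosol polysomes, against 42.0 and 24.3 CPM in cytosol monosomes (log2 ratio -3.49 ± 0.58 SE, adjusted p = 0.0012).

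On the membrane most estimates lay on the polysome side, with 98 of 130 above 0 in proliferating cells, but few passed. That count is given without a share of all genes. With DESeq2 size factors the median log2 ratio there was 0.33 for members and 0.04 for all genes. In proliferating cells Tmem9, a lysosomal protein, and Tmem160 were higher in membrane polysomes and Tmem29 was lower, against 0.358% higher and 0.438% lower of all genes, and the median log2 ratio was 0.50 for members and 0.22 for all genes. The block changed this to 40 higher and 9 lower, against 16.8% and 6.25% of all genes, and fits that left out 1 library called 0 to 2 members. Tmem9 had 309 and 243 CPM in membrane polysomes, against 114 and 106 CPM in membrane monosomes (log2 ratio 1.69 ± 0.34 SE, adjusted p = 0.0381). Tmem160 had 99.9 and 98.7 CPM in membrane polysomes, against 38.6 and 46.3 CPM in membrane monosomes (log2 ratio 1.58 ± 0.31 SE, adjusted p = 0.0363). Tmem29 had 10.3 and 7.87 CPM in membrane polysomes, against 62.2 and 43.3 CPM in membrane monosomes (log2 ratio -2.15 ± 0.37 SE, adjusted p = 0.0253). In differentiating cells 11 members passed, against 3.95% of all genes. Of these, 5 were higher and 6 lower, against 2.05% and 1.91% of all genes. The block called 60, against 29.7% of all genes, with 44 higher and 16 lower, against 20.3% and 9.37%. The 5 were Tmem119 (log2 ratio 1.99 ± 0.46 SE, adjusted p = 0.032), Tmem111, Tmem50a, Tmem160 and Tmem9, and the 6 were Tmem134 (log2 ratio -2.78 ± 0.56 SE, adjusted p = 0.0203), Tmem149, Tmem29, Tmem80, Tmem126a and Tmem183a. Without 1 of the 4 membrane libraries of differentiating cells, 0 or 1 of these members passed.

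The difference between fractions was tested directly. In proliferating cells the polysome to monosome ratio was higher in membrane than in cytosol for 36 members and lower for none, against 6.19% and 1.1% of all genes (edgeR's interaction term). Of 130 estimates 117 were above 0, a count given without a share of all genes. The median difference of log2 ratios was 1.71 for members and 0.11 for all genes. The 36 calls stood against 7.29% of all genes in both directions. The replicate block called 76, against 28.5% of all genes, with 75 higher and 1 lower. Leaving out 1 library gave 13 to 37 calls: 20 and 17 without cytosol polysome replicate 1 or 2, 17 without membrane polysome replicate 2, 13 and 22 without membrane monosome replicate 1 or 2, and 22 without cytosol monosome replicate 2. By list the 36 held 11 of 21 ER members, 4 of 15 of Golgi, endosome and lysosome, 4 of 12 of the plasma membrane, 2 of 7 of the nuclear envelope, none of 10 of mitochondria and 1 of 5 of the cilium. Tmem9 had 309 and 243 CPM in membrane polysomes and 114 and 106 CPM in membrane monosomes, against 10.7 and 6.57 CPM in cytosol polysomes and 33.6 and 44.9 CPM in cytosol monosomes (interaction, log2 difference 3.94 ± 0.49 SE, adjusted p = 0.000822). Its level was thus higher in polysomes on the membrane and in monosomes in the cytosol.

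**Figure D3:**
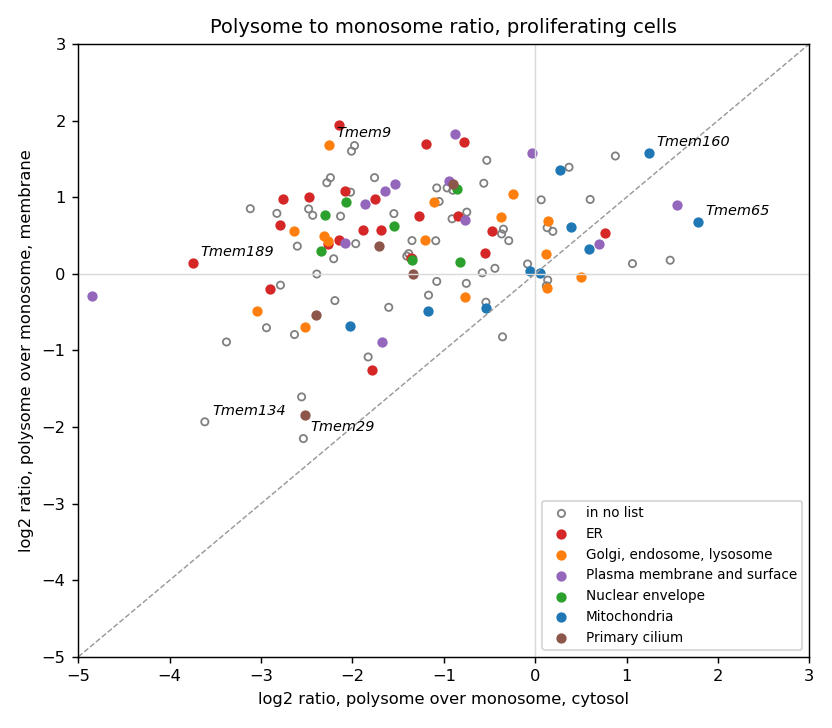
Log2 ratio of polysome over monosome in membrane (vertical axis) and in cytosol (horizontal axis) of proliferating cells, 1 point per Tmem gene, coloured by list; the dashed line marks equal ratios. Of the 130 points, 117 lie above the line, a count given without a share of all genes. The mitochondrial genes Tmem65 and Tmem160 are at the right with cytosol ratios of 1.78 and 1.24. The point farthest left is Tmem204, without a read in cytosol polysomes, so its place depends on the fit.

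Differentiation changed a smaller set of members. In membrane 14 of 130 members were higher and 16 lower in differentiating than in proliferating cells (edgeR). These shares were close to the 9.59% and 13.6% of all genes, so the number called there was not particular to members. With DESeq2 size factors 18 were higher and 9 lower. In cytosol 18 were higher and 5 lower, against 7.35% and 7.1%; 12 members were higher in both fractions and 3 lower in both. With the block 68 members passed in membrane, against 50.1% of all genes, with 31 higher and 37 lower against 20.7% and 29.4% of all genes, and 39 and 9 in cytosol, against 19.1% each way. Over polysome libraries alone, chosen after seeing the data, 5 members were higher and 2 lower in membrane and 2 were higher in cytosol. All members called with monosomes included kept their sign there. No share of all genes is given for this alternative, for the size factors or for the counts in both fractions. Leaving out 1 library gave 15 to 34 calls in membrane, with 17 without polysome replicate 2 and 15 without monosome replicate 2 of proliferating cells and 18 without polysome replicate 1 of differentiating cells. In cytosol it gave 12 to 22, with 12 and 13 without polysome or monosome replicate 2 of proliferating cells. In bulk RNA, fewer cells of a type and less RNA per cell cannot be told apart.

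Tmem8c (myomaker), the muscle protein that drives myoblast fusion, showed the largest change in membrane. It had 1000.4 and 330.0 CPM in polysomes and 343 and 147 CPM in monosomes of differentiating membrane, against 2.91 and 2.05 CPM in polysomes and 3.08 and 1.87 CPM in monosomes of proliferating membrane. Its cytosol levels were 102 and 46.4 CPM in polysomes and 201 and 46.2 CPM in monosomes of differentiating cytosol, against 0.516 and 0.328 CPM in polysomes and 0.26 and 0.221 CPM in monosomes of proliferating cytosol. Each differentiating library was far above each proliferating library, in membrane (log2 ratio 7.52 ± 0.64 SE, adjusted p = 1.58e-05) and in cytosol. The cytosol change passed as well, but no proliferating cytosol library had more than 3 reads, too few for a fold change. Replicate 1 was above replicate 2 in differentiating cells, as for Acta1. Tmem182, a muscle surface protein, had 114 and 29.1 CPM in polysomes and 68.9 and 22.3 CPM in monosomes of differentiating membrane, against 0.971 and 0.171 CPM in polysomes and 2.05 and 0.934 CPM in monosomes of proliferating membrane, without overlap (log2 ratio 6.07 ± 0.77 SE, adjusted p = 0.0002). Cytosol values of Tmem182 were 16.8 and 9.69 CPM in polysomes and 40.5 and 16.5 CPM in monosomes of differentiating cytosol, against 0 and 1.31 CPM in polysomes and 2.87 and 1.33 CPM in monosomes of proliferating cytosol (log2 ratio 4.28 ± 0.74 SE, adjusted p = 0.00235). The proliferating cytosol libraries had 0 to 11 reads of Tmem182 each. Proliferating membrane libraries had 1 to 10, so the sizes of both Tmem182 ratios rest on few reads. Tmem8c and Tmem182 met the read minimum for members only through differentiating cells. Genes as low in differentiating as in proliferating cells would not have been members. The direction of both changes was thus partly set by the choice of members, and the p-values do not allow for this.

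Tmem38a (TRIC-A), the counter-ion channel of the sarcoplasmic reticulum, had 1675 and 315 CPM in polysomes and 826 and 158 CPM in monosomes of differentiating membrane, against 92.4 and 63.3 CPM in polysomes and 63.2 and 38.5 CPM in monosomes of proliferating membrane. All differentiating libraries were on top, and replicate 1 was again above replicate 2 (log2 ratio 3.67 ± 0.80 SE, adjusted p = 0.00679). Its relative Tmem38b (TRIC-B) rose in membrane, with 14.6 and 23.1 CPM in polysomes and 19.4 and 23.9 CPM in monosomes of differentiating membrane, against 4.13 and 9.07 CPM in polysomes and 5.95 and 5.23 CPM in monosomes of proliferating membrane (log2 ratio 1.87 ± 0.39 SE, adjusted p = 0.00415). The remaining member of the muscle list, Tmem109, did not pass in either fraction (log2 ratio -0.48 ± 0.43 SE, adjusted p = 0.444 in membrane), but did in cytosol with the block (log2 change 1.15 ± 0.31 SE, adjusted p = 0.00359).

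**Figure D4:**
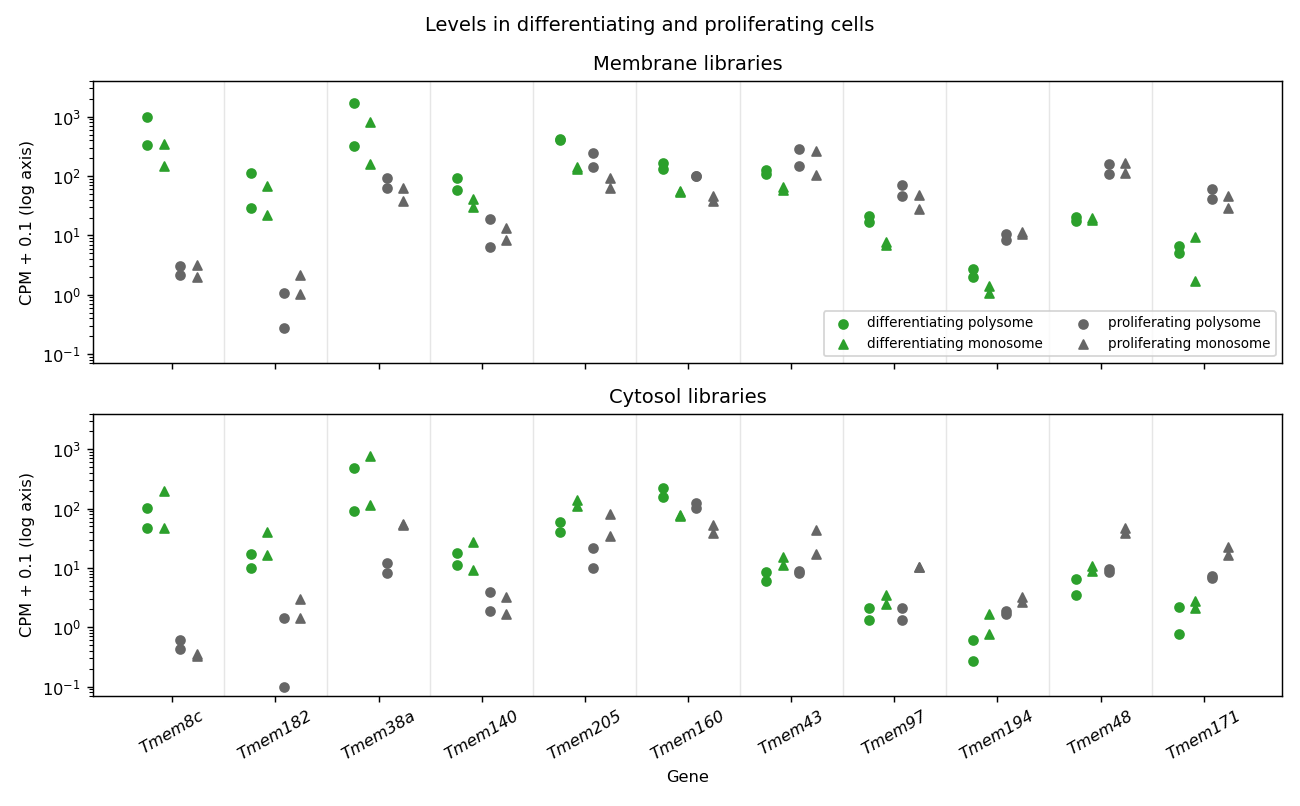
CPM plus 0.1 (log axis) of 11 Tmem genes in membrane libraries (top) and cytosol libraries (bottom); green marks differentiating and grey proliferating cells, circles polysomes and triangles monosomes, 2 replicates each. Tmem8c lies at 147 to 1000.4 CPM in differentiating membrane against 1.87 to 3.08 CPM in proliferating membrane, and Tmem48 at 17.1 to 20.0 CPM against 108 to 163 CPM.

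Beyond the muscle list, Tmem204, Tmem184a and Tmem140 rose in both fractions. Tmem204 and Tmem184a met the read minimum only through differentiating cells, the selection limit given above for Tmem8c. Tmem140 had 58.5 and 91.9 CPM in polysomes and 41.4 and 30.2 CPM in monosomes of differentiating membrane, against 18.6 and 6.16 CPM in polysomes and 13.3 and 8.22 CPM in monosomes of proliferating membrane, without overlap (log2 ratio 2.35 ± 0.40 SE, adjusted p = 0.00119). Tmem204 had 12.7 and 25.0 CPM in polysomes and 12.7 and 13.3 CPM in monosomes of differentiating membrane, against 1.58 and 0.342 CPM in polysomes and 2.05 and 1.12 CPM in monosomes of proliferating membrane (log2 ratio 3.79 ± 0.57 SE, adjusted p = 0.000757). Its cytosol polysomes had no read in proliferating cells, and no fold change is given there. Tmem184a (log2 ratio 3.27 ± 0.63 SE, adjusted p = 0.00273) stayed under 16 CPM in all gradient libraries. Tmem229b, Tmem53, Tmem64, Tmem60, Tmem205 and Tmem160 were the others higher in both fractions, and Tmem55a rose in membrane. In cytosol Tmem203, Tmem120b, Tmem9, Tmem218, Tmem57 and Tmem167b rose as well.

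Most nuclear envelope genes fell in membrane. There, 4 of 7 members of that list were lower in differentiating cells and 1 was higher, and the list median was -1.29. Tmem48 (Ndc1), the nuclear pore anchor, had 17.1 and 20.0 CPM in polysomes and 18.4 and 19.4 CPM in monosomes of differentiating membrane, against 108 and 158 CPM in polysomes and 114 and 163 CPM in monosomes of proliferating membrane. Every differentiating library was far below the lowest proliferating library (log2 ratio -2.73 ± 0.27 SE, adjusted p = 3.13e-05), and the cytosol also fell (log2 ratio -1.28 ± 0.27 SE, adjusted p = 0.00716). Tmem194 (Nemp1) had 1.90 and 2.64 CPM in polysomes and 0.957 and 1.33 CPM in monosomes of differentiating membrane, against 8.26 and 10.4 CPM in polysomes and 10.3 and 11.4 CPM in monosomes of proliferating membrane, without overlap (log2 ratio -2.48 ± 0.38 SE, adjusted p = 0.00066). Tmem209 (log2 ratio -1.37 ± 0.31 SE, adjusted p = 0.00712) and Tmem194b (log2 ratio -1.29 ± 0.43 SE, adjusted p = 0.0458) fell, whereas Tmem53 rose (log2 ratio 1.81 ± 0.48 SE, adjusted p = 0.0163) and Tmem120a and Tmem201 did not pass. With the block both were lower, Tmem120a (log2 change -0.57 ± 0.17 SE, adjusted p = 0.00544) and Tmem201 (log2 change -0.95 ± 0.19 SE, adjusted p = 8.46e-05). Proliferation markers moved beside these genes: Mki67 had 28.6 to 81.7 CPM in differentiating membrane and 281 to 538 CPM in proliferating membrane; its part in the result was not tested.

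Tmem171 had the largest fall in membrane, with 6.53 and 4.99 CPM in polysomes and 9.33 and 1.59 CPM in monosomes of differentiating membrane, against 41.0 and 61.4 CPM in polysomes and 29.3 and 46.5 CPM in monosomes of proliferating membrane (log2 ratio -2.85 ± 0.46 SE, adjusted p = 0.000921). ER members that fell there were Tmem97, Tmem41b, Tmem43, Tmem33 and Tmem173. Tmem97, the sigma-2 receptor, had 21.1 and 16.6 CPM in polysomes and 6.70 and 7.69 CPM in monosomes of differentiating membrane, against 46.7 and 70.3 CPM in polysomes and 27.3 and 48.2 CPM in monosomes of proliferating membrane, without overlap (log2 ratio -1.88 ± 0.32 SE, adjusted p = 0.00124). Tmem186, Tmem63a, Tmem206, Tmem2, Tmem164 and Tmem14c were the remaining members lower in membrane, with log2 ratios from -1.05 to -0.73. In cytosol the members that fell were Tmem79, Tmem171, Tmem194, Tmem121 and Tmem48.

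Puromycin ends translation by releasing the nascent chain, and the exposure asks whether an mRNA stays on the membrane without it. Without exposure members had a median log2 ratio of membrane over cytosol of 1.74 in the untreated pair and 2.41 in the 0 min pair. After 30 min it was 0.14 and after 60 min 0.10, close to the medians of all genes, 0.22 and 0.23; those of all genes without exposure were 0.10 and 0.14. The filter left 124 members for testing, without Tmem182, Tmem184a, Tmem190, Tmem204, Tmem68 and Tmem8c. Each fraction and exposure had 1 library, so that the spread comes from the fit over 8 libraries.

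With a slope per 30 min, no member passed (edgeR; 0% of all genes), 65 of 124 members had an unadjusted p under 0.05 against 2535 of 9919 genes, and the median change was -1.04 for members and 0.11 for all genes. When the 30 and 60 min pairs were set against the untreated and 0 min pairs, 72 members fell and 3 rose, against 20.5% and 19% of all genes. This alternative coding takes the 30 and 60 min pairs as replicates of each other, and the untreated and 0 min pairs likewise. Log2 changes of single genes below come from it unless the slope is named. DESeq2's test of the slope called 52 members lower and 1 higher, and no share of all genes is given for that test. Leaving out the 30 min or the 60 min pair gave 67 and 69 calls on the slope, also without a share of all genes. Both exposed ratios were below both unexposed ratios for 85 members, 68.5%, against 27% of all genes. CPM was higher in both exposed cytosol libraries than in both unexposed ones for 87 members, 70.2% against 31.8% of all genes, and lower in both exposed membrane libraries for 70, 56.5% against 18.8%.

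In the same fit the fraction term without exposure, in libraries separate from the gradients, called 71 members higher in membrane and 7 lower, against 25.8% and 21.4% of all genes. Of the 71, 64 were also higher in membrane in the gradients. No member was called without the untreated pair or without the 0 min pair. The 7 lower were Tmem134, Tmem183a, Tmem29, Tmem65, Tmem141, Tmem93 and Tmem11.

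By list, the ER median was 3.10 untreated, 3.39 at 0 min, 0.02 at 30 min and -0.06 at 60 min. The plasma membrane median was 3.46, 3.50, -0.14 and 0.20 in the same order. The mitochondrial median was 0.32, -0.01, 0.10 and 0.19, over members on both sides of 0. Untreated and at 0, 30 and 60 min, Tmem111 had 1171, 1155, 613 and 589.8 CPM in membrane and 93.0, 92.6, 822 and 744 CPM in cytosol over the same pairs. Its level was far higher in membrane without exposure and slightly higher in cytosol after 30 and 60 min (exposed against not exposed, log2 change -4.11 ± 0.17 SE, adjusted p = 1.25e-10). On the slope per 30 min Tmem111 did not pass (edgeR, log2 change -2.22 ± 0.52 SE, adjusted p = 0.11). Tmem9 had 229, 254, 143 and 154 CPM in membrane and 9.08, 10.5, 193 and 183 CPM in cytosol over the same pairs (log2 change -5.05 ± 0.20 SE, adjusted p = 9.78e-11). Tmem109, the cation channel, had 34.6, 44.4, 19.7 and 18.8 CPM in membrane and 1.45, 0.551, 16.2 and 14.3 CPM in cytosol over the same pairs (log2 change -5.11 ± 0.41 SE, adjusted p = 8.39e-08). In both genes the 2 exposed libraries were lower in membrane and higher in cytosol than the 2 unexposed ones.

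**Figure D5:**
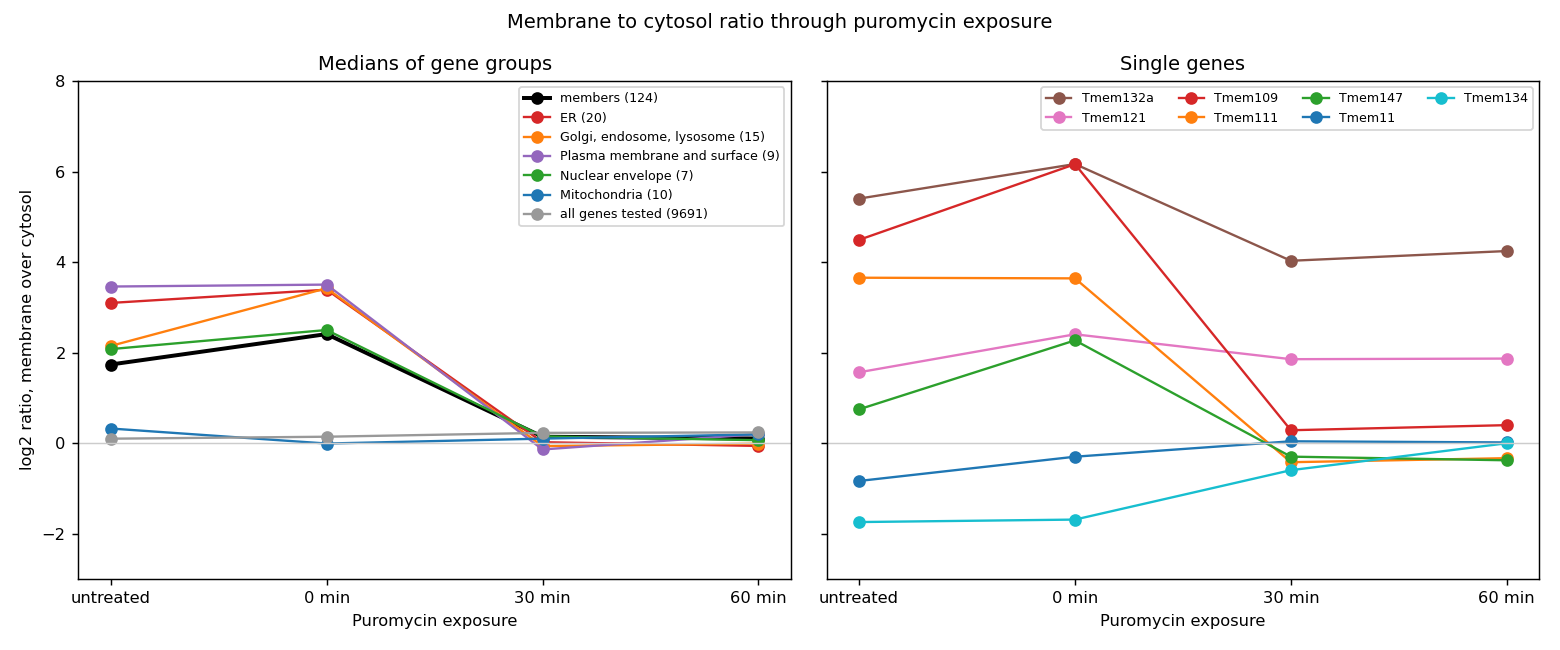
Log2 ratio of membrane over cytosol in the 4 pairs of the puromycin set, left as medians of all 124 Tmem members, of the lists and of all genes tested (numbers of genes in brackets), right for 7 single genes; 1 library per fraction and exposure. The median of members is 1.74 and 2.41 without exposure and 0.14 and 0.10 after 30 and 60 min, while Tmem132a stays at 4.03 and 4.24 and Tmem121 at 1.85 and 1.87.

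Members over 2-fold in membrane in both unexposed pairs numbered 73, 58.9% of the 124 members, against 2315 or 23.9% of all genes. Of these 73, 8 stayed over 2-fold in both exposed pairs (11.0%), against 687 of the 2315 genes (29.7%). As shares of the whole sets these are 6.45% of members and 7.09% of all genes. They were Tmem132a, Tmem2, Tmem121, Tmem151a, Tmem168, Tmem194b, Tmem198 and Tmem44. Tmem132a had 49.9, 64.3, 78.4 and 82.5 CPM in membrane and 1.09, 0.827, 4.76 and 4.29 CPM in cytosol over the same pairs. Its membrane level was higher after exposure than before, and its ratio still fell (log2 change -1.86 ± 0.41 SE, adjusted p = 0.00234). Tmem121 had 34.0, 28.0, 29.5 and 27.9 CPM in membrane and 11.4, 5.24, 8.14 and 7.61 CPM in cytosol over the same pairs, with log2 ratios of 1.56, 2.40, 1.85 and 1.87 (log2 change -0.17 ± 0.32 SE, adjusted p = 0.709). Tmem2, the surface hyaluronidase, had 68.7, 60.5, 40.4 and 32.0 CPM in membrane and 3.27, 1.79, 12.6 and 8.30 CPM in cytosol over the same pairs, a ratio that shrank but stayed over 2-fold.

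The 3 members that passed with a higher membrane ratio after exposure had been below 0 in both unexposed pairs. Tmem134 had 65.0, 102, 144 and 169 CPM in membrane and 218, 329, 219 and 169.8 CPM in cytosol over the same pairs (log2 change 1.33 ± 0.20 SE, adjusted p = 7.78e-05). Tmem183a (log2 change 0.45 ± 0.17 SE, adjusted p = 0.0476) and Tmem141 (log2 change 0.68 ± 0.24 SE, adjusted p = 0.0322) were the other 2. Tmem11 of the cristae went the same way without passing (log2 change 0.52 ± 0.21 SE, adjusted p = 0.0578).

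The whole-fraction pair and the RNA-seq libraries, with 1 library per fraction and hence no test, gave the membrane side again. In the whole-fraction pair the median log2 ratio of the 124 members was 2.37, against -0.12 for all genes, and 73.4% of members were over 2-fold against 26.2% of all genes. The RNA-seq table listed 104 members, of which 57 had at least 20 reads in the constitutive part of the 3' UTR, before the alternative part, in both fractions. Their median log2 ratio was 1.40, against -0.44 for 6156 genes, and 32 were over 2-fold, 56.1% against 15.5% of all genes. All 15 ER members were over 2-fold and none of 7 mitochondrial members was. Tmem43 had 4191 reads in membrane and 238 reads in cytosol, of 6521105 and 4415706 reads in the table, a log2 ratio of 3.57. At the other end, Tmem65 had 34 reads in membrane and 117 reads in cytosol (-2.32), Tmem134 494 and 1190 reads (-1.83) and Tmem183a 178 and 370 reads (-1.61).

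Across members the log2 ratios of separate experiments ran alike, as a description over genes that are not independent replicates. Pearson's r between the proliferating gradients and the whole-fraction pair was 0.87, with the untreated pair 0.80 (130 members each) and with RNA-seq 0.81 (57 members). With the pair at 60 min of puromycin it was 0.17. Over all genes the same values were 0.86, 0.86, 0.80 and 0.33.

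No difference in site use between the fractions was called among members. The 2 most used sites of 68 members, at a median of 550 nt apart (26 to 5881 nt), entered the test of distal against proximal reads; over all 4554 genes with such a pair the median was 677 nt. No member passed in proliferating or in differentiating cells (edgeR; 0.527% and 0.022% of all genes passed), with 4 members at an unadjusted p under 0.05 in each. The median change in the log2 ratio of distal over proximal reads, membrane against cytosol, was -0.0006 for members and 0.15 for all genes in proliferating cells, and 0.20 and 0.15 in differentiating cells. With the replicate block, 3 members passed in proliferating cells, Tmem111 and Tmem42 with more distal reads in membrane and Tmem64 with fewer, against 6.08% of all genes. In differentiating cells 2 passed, Tmem60 with more and Tmem64 with fewer, against 1.65% of all genes.

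Tmem111 used its distal site, 930 nt downstream of the proximal one, for 49.2 and 45.1% of reads in membrane polysomes and 61.7 and 43.0% in membrane monosomes, against 36.0 and 33.9% in cytosol polysomes and 39.1 and 31.2% in cytosol monosomes of proliferating cells. The membrane libraries were all above the cytosol ones, from 345 to 7047 reads each. Tmem64, with sites 1412 nt apart, differed more between replicates than between fractions: its distal share was 72.7% in replicate 1 and 33.3% in replicate 2 of membrane polysomes, against 83.7% in replicate 1 and 36.0% in replicate 2 of cytosol polysomes. Tmem60, with sites 393 nt apart, had 95.9 and 90.9% distal reads in membrane polysomes and 78.6 and 77.8% in membrane monosomes, against 74.4 and 71.8% in cytosol polysomes and 62.3 and 78.9% in cytosol monosomes of differentiating cells.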

How the data were processed

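The authors deposited raw read counts per poly(A) site for 26 libraries of 3' ends, and raw counts of RNA-seq reads in the constitutive and the alternative part of the 3' UTR for 3 libraries. Per the submitters' processing notes, the build was mm9 and the tools included cutadapt, Bowtie2 and STAR 2.5.2; the counting rule is not given in the sources used here. Site counts were summed by symbol, leaving out positions listed under more than 1 symbol.

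Genes were tested with edgeR 4.0.16 in R 4.3.3, in a quasi-likelihood fit with TMM scaling, filterByExpr and Benjamini-Hochberg adjustment over all genes tested. A call is an adjusted p under 0.05, and the SE of a log2 ratio was derived from the F statistic. All 16 gradient libraries entered 1 fit, and the 8 libraries of the puromycin set another. Site pairs were tested as distal against proximal reads of the 2 most used sites within 10 kb. RNA-seq ratios used a pseudocount of 1 read. Alternatives used DESeq2 1.42.0.

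The main gradient fits used no replicate block, since the labels do not say that a number marks a shared culture or day. Deviations of same-numbered libraries from their group means correlated at 0.469 to 0.725 in all 12 pairs of groups of the same state. The main fits leave this pairing out, and fits with the replicate number as a block were run as an alternative. The lists were chosen with earlier results of these data known, whereas members were set by symbol and read minimum. Named by rule were all list members, the members with the largest changes in each comparison and the 10 of highest level; some others shown by library were chosen after their values were seen. On simulated counts for membrane against cytosol in proliferating cells (10851 genes), the test recovered 9.23% of genes changed by a log2 ratio of 1, 70.2% at 2 and 90.6% at 3. Total counts limit the precision of low genes.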

Additional observations from a re-analysis of the deposited data

Results flagged for a closer look

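For 6 members the polysome to monosome ratio differed between membrane and cytosol of proliferating cells by more than for the other members that passed (edgeR's interaction term, log2 scale, membrane minus cytosol). The differences were 4.10 for Tmem109, a cation channel of the ER and sarcoplasmic reticulum, 3.97 for Tmem87b, 3.94 for the lysosomal Tmem9, 3.88 for the plasmalogen desaturase Tmem189, 3.74 for the sigma-2 receptor Tmem97 and 3.65 for Tmem205. Cytosol polysomes had 4 and 12 reads of Tmem109, 14 and 6 of Tmem87b, 9 and 19 of Tmem189 and 7 and 12 of Tmem97. The sizes and ranks of those differences rest on few reads. Tmem9 had 62 and 40 reads there, and Tmem205 had 123 and 59.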

How the results depend on the processing

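With the replicate number as a block, the number of members called was 13 for the state difference of the membrane ratio, 49 for polysomes against monosomes in membrane of proliferating cells, 60 in membrane and 78 in cytosol of differentiating cells, 76 for the difference of that ratio between fractions, 68 in membrane and 48 in cytosol for differentiation, and 3 and 2 for site pairs of proliferating and differentiating cells; the block moved no other count of calls by over 1.5 times. Of the values of named members, 135 kept their side of the threshold with the block and 8 passed newly, given beside them, as did Tmem109 in cytosol and Tmem120a and Tmem201 in membrane for differentiation; no call was lost. For polysomes against monosomes in membrane, 1 member was called in proliferating cells without the filter on low counts, 0 in proliferating and 2 in differentiating cells when each state was fitted alone, and 13 and 19 by DESeq2's test. Over polysome libraries alone, differentiation called 7 members in membrane and 2 in cytosol. For puromycin, the exposed against unexposed coding called 75 and DESeq2's test of the slope 53. The median log2 ratio of the whole-fraction pair was 2.34 with size factors. RNA-seq medians were 1.35 (pseudocount of 5 reads) and 1.22 (at least 50 reads) for membrane, 0.49 and 0.36 for insoluble material, and 0.32 and 0.27 for the alternative part in membrane. The causes were not tested. Leaving out 1 library gave 74 to 92 calls for membrane against cytosol in proliferating and 51 to 66 in differentiating cells, 0 to 0 for the state difference, 30 to 53 and 24 to 52 for polysomes in cytosol of proliferating and differentiating cells, 0 to 2 and 0 to 12 in membrane, 13 to 37 for the ratio difference, 15 to 34 and 12 to 22 for differentiation in membrane and cytosol, 0 to 69 for the puromycin slope, 0 to 94 for its fraction term and 0 to 0 for both site tests. Among 3180 values of named members under alternatives, 2842 kept their direction and side of the threshold, 293 no longer passed, 28 passed newly and 17 changed sign, all of the last for members that did not pass in membrane against cytosol of proliferating cells. These were Tmem107 at -0.069 with size factors, -0.11 without the filter, -0.074 with DESeq2's test and -0.20, -0.12 and -0.0043 without single membrane libraries (-0.20 to 0.25 over all single libraries left out), Tmem120a at -0.14 (-0.14 to 0.39), Tmem182 at 1.83 (-1.42 to 1.83), Tmem167 at 0.0095 and 0.022 (-0.26 to 0.022) and Tmem38b at 0.018 and 0.12 (-0.62 to 0.12) without 1 library each, Tmem199 at -0.0047 without the filter, and, over polysome libraries alone, Tmem167 at 0.71, Tmem192 at 0.55, Tmem199 at -0.20 and Tmem38b at 1.40.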

Other observations

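The insoluble material of proliferating cells, 1 RNA-seq library, held ER Tmem mRNAs above the cytosol as the membrane fraction did. Of 54 members with at least 20 reads in both libraries, 21 were over 2-fold in insoluble material, 38.9% against 25.3% of all genes, with a median log2 ratio of 0.53 for members and -0.04 for all genes. Among ER members 11 of 15 were over 2-fold, with a median of 1.63, while none of 6 mitochondrial members was, with a median of -1.52. Tmem43 had 1530 reads in insoluble material and 238 reads in cytosol, and Tmem134 had 282 and 1190 reads.

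The alternative part of the 3' UTR relative to the constitutive part had a median log2 ratio of membrane over cytosol of 0.30 over 27 members and 0.47 over all genes, with 1 library per fraction and no test.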
